A study of Homo sapiens with 12 samples.

Results

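The transcripts of 7 genes of cellular iron storage, uptake and sensing were followed through 6 RIP-seq peak lists from HepG2 cells, an established human liver cancer cell line. The genes were FTH1, FTL, TFRC, TFR2, IREB2, ACO1 and HMOX1. They were taken by name from the lists, and all 7 of them carried a peak in at least 1 list, out of 10830 gene names in the 6 lists. Together they held 45 of the 101848 peaks, with 6 and 7 peaks in METTL16 replicates 1 and 2, 8 and 4 in eIF3a replicates 1 and 2, and 10 in each eIF3b replicate.

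RNA immunoprecipitation followed by sequencing (RIP-seq) pulls a protein down with an antibody and sequences the RNA that comes with it. A peak is a stretch of a transcript with more reads in the pull-down than in the input, the RNA kept before the pull-down. METTL16 is an RNA methyltransferase, and eIF3a and eIF3b are subunits of translation initiation factor eIF3. Per the labels, HepG2 cells were made into stable lines by infection with pmiRNA1-3XFlag-METTL16, pSIN4-3XFlag-eIF3a or pSIN4-3XFlag-eIF3b, so each line carried an added tagged copy of 1 of the 3 proteins beside its own, and whether a line was 1 clone or a pool was not given in the sources used here. The cells were cross-linked with ultraviolet light. Each protein had 2 RIP samples and 2 inputs, 12 samples in all, and each RIP sample had 1 list. By the labels, METTL16 and eIF3b were pulled down by their Flag tag. For eIF3a the antibody bound eIF3a itself, tagged or not, so in its lists antibody and protein cannot be told apart. The deposited lists, however, are all named for the Flag tag. The study describes the replicates as biological, and the sources used here do not say how they were kept apart.

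A vertebrate cell sets its iron supply largely after transcription. The iron regulatory proteins, coded by ACO1 and IREB2, bind a small hairpin called the iron-responsive element when iron is scarce. In the 5′ UTR of the ferritin transcripts FTH1 and FTL the bound hairpin blocks the start of translation, and in the 3′ UTR of TFRC, the transferrin receptor, bound hairpins keep the transcript from being degraded. HMOX1 codes for haem oxygenase, which breaks down haem and sets its iron free, and TFR2 codes for a second transferrin receptor that serves in liver cells as a sensor of iron-loaded transferrin.

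The hairpins were located first, since the position of the peaks against them is what the lists can show. The UTRs of the canonical transcripts were searched for an unpaired C, any 5 bases, the 5 letters CAGTG, any base, and then 5 bases that all pair with the 5 before the loop, on the transcript strand only. There was 1 match in the 5′ UTR of FTH1, 1 in the 5′ UTR of FTL and 4 in the 3′ UTR of TFRC, numbered here from the 5′ end. No match was found in TFR2, IREB2, ACO1 or HMOX1, which says only that this pattern as a whole is not in their UTRs. The pattern is strict, so a hairpin with another loop or a mispaired stem would be missed, in TFRC as elsewhere, and "element" below means a match to it. Among all protein coding genes the match was rare. It was in 0.0979% of 19417 5′ UTRs (19 genes) and in 0.625% of 19526 3′ UTRs (122 genes), and TFRC held more matches than any other 3′ UTR. The sequences below are those the peaks are set against. They were read from the GENCODE release 44 transcripts on GRCh38 and are given 5′ to 3′, with the 6 bases of the loop in capitals.
FTH1 (chr11:61967573-61967602, minus strand, 5′ UTR, exon 1): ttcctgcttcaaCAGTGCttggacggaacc
FTL (chr19:48965335-48965364, plus strand, 5′ UTR, exon 1): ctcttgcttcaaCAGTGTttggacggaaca
TFRC element 1 (chr3:196050978-196051007, minus strand, 3′ UTR, exon 19): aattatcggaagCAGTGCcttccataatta
TFRC element 2 (chr3:196050574-196050603, minus strand, 3′ UTR, exon 19): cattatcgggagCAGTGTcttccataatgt
TFRC element 3 (chr3:196050509-196050538, minus strand, 3′ UTR, exon 19): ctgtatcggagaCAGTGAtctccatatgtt
TFRC element 4 (chr3:196050462-196050491, minus strand, 3′ UTR, exon 19): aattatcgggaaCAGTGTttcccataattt

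Positions below count from 1 at the 5′ end of the canonical transcript. The fold enrichment of a peak is the ratio of RIP to input signal that the authors' peak caller gave it, and the depth behind it is unknown because the lists hold no read counts. The median fold enrichment of all peaks lay between 2.73 and 3.40 in the 6 lists, and the median width between 180 and 210 bases. The lists differed in length, from 12921 peaks in eIF3a replicate 2 to 21733 in eIF3a replicate 1. They also differed in base composition. Of the transcript bases under peaks, 59.8% and 61.7% were G or C in METTL16 replicates 1 and 2, 54.2% and 53.8% in eIF3a and 59.0% and 54.7% in eIF3b. Of 10 liver and HepG2 marker genes, 9 carried a peak in at least 1 list, with SERPINA1 and HNF4A in all 6 and TTR in none. Of 6 genes of other cell types, 4 carried a peak in at least 1 list (PTPRC, PECAM1, VIM and HBB) and none in all 6. A peak is enrichment over input, so these counts do not measure expression.

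FTH1 codes for the ferritin heavy chain, which oxidises iron for storage. The gene lies at chr11:61964285-61967634 on the minus strand, and its transcript of 1203 bases has a 5′ UTR of 209 bases, all of it in exon 1. FTH1 was listed with exactly 1 peak in each of the 6 lists, and every one of them lay at the 5′ end. The METTL16 peaks ran from position 1 to 215 in replicate 1 and to 245 in replicate 2. The eIF3a peaks ran from 1 to 155 in replicate 1 and to 35 in replicate 2, and both eIF3b peaks from 1 to 155. All 6 peaks began 26 bases upstream of the canonical 5′ end. METTL16 was the protein whose peaks reached farthest along the transcript. Its peaks covered the whole 5′ UTR and the start codon at position 210, whereas no eIF3a or eIF3b peak reached the start codon.

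The FTH1 peaks differed in height. METTL16 replicate 1 had a fold enrichment of 6.41 and replicate 2 of 2.76, against 3.2 and 1.76 for eIF3a and 4.13 and 3.3 for eIF3b. Both eIF3a values lay below both eIF3b values, and the METTL16 values overlapped those of both. By p-value the peak ranked 19 and 236 in the METTL16 lists, 73 and 963 in the eIF3a lists and 108 and 90 in the eIF3b lists. It thus stood high in the lists even where its fold was close to the median. The iron-responsive element, at positions 39 to 55, lay entirely under the peak in 5 of the 6 lists. The exception was eIF3a replicate 2, whose peak stopped 4 bases before it.

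FTL codes for the ferritin light chain, which helps to form the mineral core. The gene lies at chr19:48965309-48966879 on the plus strand, and its transcript has 871 bases. FTL was also listed in all 6 lists, but its peaks formed 2 separate groups, at the 5′ end and within the coding sequence. The 5′ peak ran from position 1 to 146 in METTL16 replicate 1 (fold 3.2), to 117 in eIF3a replicate 1 (fold 2.17), to 88 in eIF3b replicate 1 (fold 2.2) and to 59 in eIF3b replicate 2 (fold 1.75). METTL16 replicate 2 and eIF3a replicate 2 had no 5′ peak. The element at positions 33 to 49 was therefore under a peak in 4 of 6 lists, and it was covered entirely in each of them. The ends of these 4 peaks lay 29 bases apart, so their positions are known only to within such a step.

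The coding peak of FTL was in every list. It spanned positions 291 to 581 in METTL16 replicate 1, 291 to 610 in METTL16 replicate 2, 320 to 523 in eIF3a replicate 1, 349 to 494 in eIF3a replicate 2, 320 to 552 in eIF3b replicate 1 and 349 to 494 in eIF3b replicate 2. The 146 bases from 349 to 494, in exons 2 and 3, were shared by all 6 lists. Its fold enrichment was modest. It was 2.3 and 3.15 in METTL16, 1.72 and 1.2 in eIF3a and 1.96 and 1.41 in eIF3b, and both METTL16 values lay above the other 4. By p-value, however, this peak ranked 4 and 5 in the METTL16 lists, 5 and 287 in the eIF3a lists and 8 and 30 in the eIF3b lists. No list had a peak between the 5′ peaks, which reached position 146 at most, and position 291, a stretch that holds the start codon at position 200, and none had a peak in the 3′ UTR. FTH1 and FTL have 25 and 16 named pseudogenes in the annotation, none of which is named in the lists, and reads shared with such copies cannot be told apart here.

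**Figure D1:**
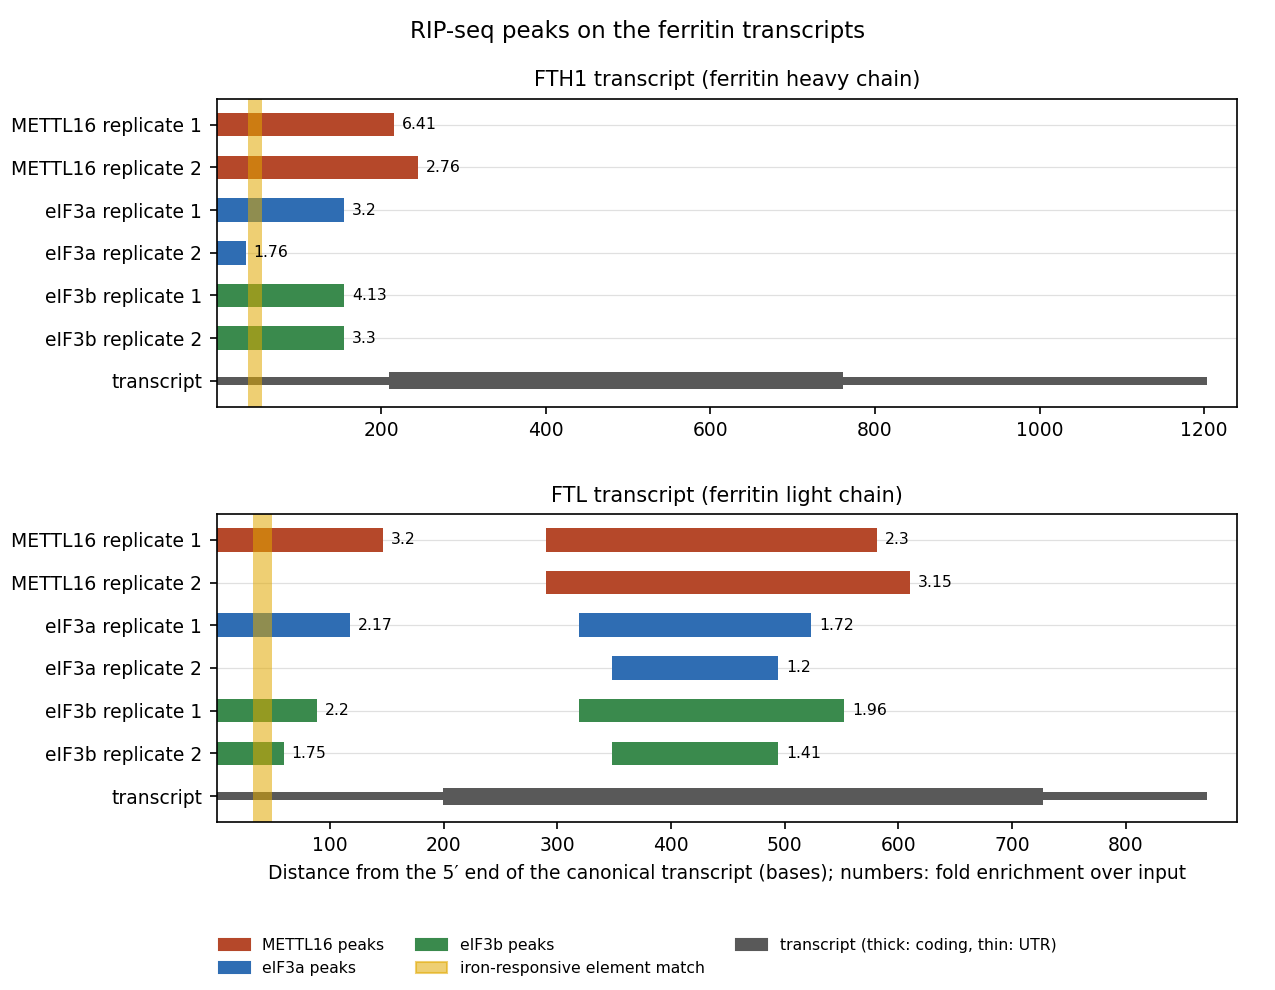
Peaks of the 6 lists along the FTH1 and FTL transcripts, with distance from the 5′ end in bases on the horizontal axis and 1 row per list. Bars are peaks with their fold enrichment over input, and the yellow band is the match to the iron-responsive element pattern, which lies under a peak in 5 of 6 lists in FTH1 and in 4 of 6 in FTL.

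Peaks near the 5′ end are not rare, so the ferritin peaks were set beside all genes. The window from position 33 to 55, which spans both ferritin elements, was under a peak in 14.0% and 13.8% of the genes with a peak in METTL16 replicates 1 and 2, in 11.2% and 6.05% for eIF3a and in 21.3% and 13.3% for eIF3b. The lowest share was in eIF3a replicate 2, the list in which neither ferritin element was under a peak. The start codon was under a peak in 18.1% and 18.5% of peak-carrying genes in the METTL16 lists, as it was for FTH1. In the eIF3 lists that share was 12.9% to 25.6%.

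TFRC codes for the receptor that brings transferrin-bound iron into the cell. The gene lies at chr3:196049284-196082090 on the minus strand, and its transcript of 5012 bases has a 3′ UTR of 2658 bases. Its peaks lay on the 3′ UTR elements rather than at the 5′ end. In eIF3a they spanned positions 3368 to 3936 in replicate 1 (fold 3.71) and 3338 to 3906 in replicate 2 (fold 2.59). In eIF3b they spanned 3667 to 3876 in replicate 1 (fold 2.05) and 3368 to 3906 in replicate 2 (fold 3.05). METTL16 had a short peak at 3727 to 3816 in replicate 1 (fold 1.56) and none in replicate 2. The 90 bases of that short peak were the ones shared by 5 lists. By p-value the 3′ UTR peak ranked 271 and 1273 in the eIF3a lists, 6959 and 1259 in the eIF3b lists and 8168 in METTL16 replicate 1, so it stood far higher in the eIF3a lists than in METTL16. eIF3b replicate 1 alone had a second peak, in the coding sequence at 408 to 468 (fold 1.35).

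The 4 TFRC elements were not alike. Element 1, at positions 3295 to 3311, was under no peak in any list, and the nearest peak, in eIF3a replicate 2, began 27 bases after it. Element 2, at 3699 to 3715, was under a peak in both eIF3a and both eIF3b lists and in neither METTL16 list. Elements 3 (3764 to 3780) and 4 (3811 to 3827) were under a peak in the same 4 lists and in METTL16 replicate 1, where only 6 of the 17 bases of element 4 were covered. Elements 2, 3 and 4 thus lay under 1 peak in all 4 eIF3 lists. These TFRC peaks were poor in G and C, at 35.7% to 40.0% of bases, against 62.9% to 72.6% for the FTH1 peaks. The METTL16 lists were the richest in G and C, and the part of base composition in the TFRC and FTH1 values was not tested.

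**Figure D2:**
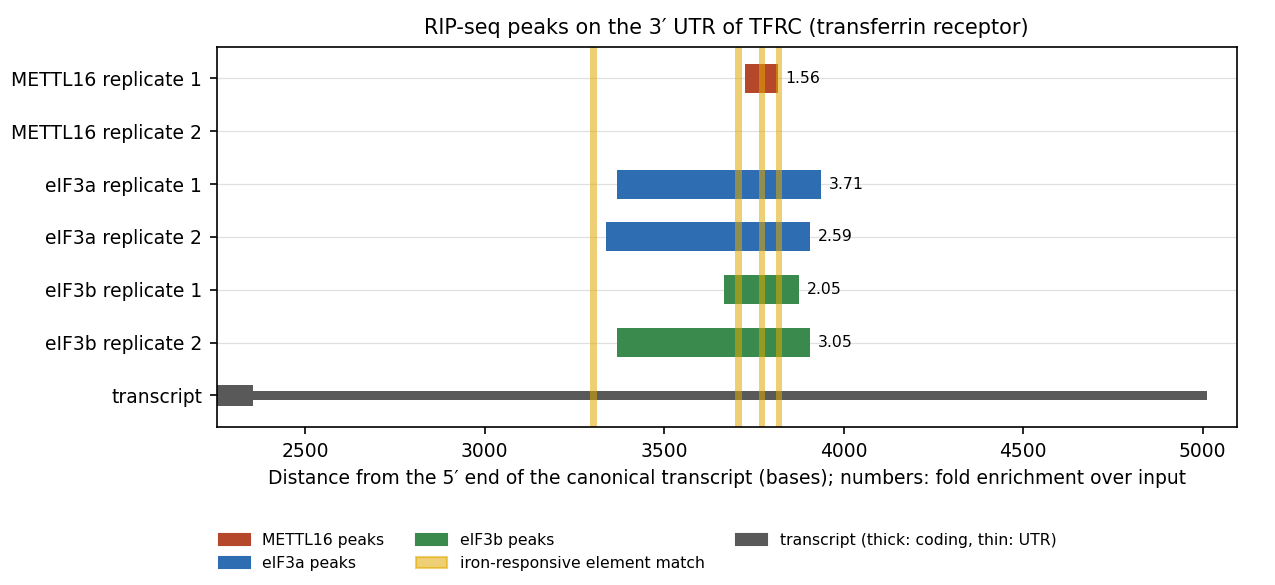
Peaks of the 6 lists along the 3′ UTR of TFRC, with distance from the 5′ end of the transcript in bases and 1 row per list. Bars are peaks with their fold enrichment over input, yellow bands are the 4 matches to the iron-responsive element pattern, and the 3 matches nearest the 3′ end lie under the peaks of all 4 eIF3 lists while element 1 lies under none.

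TFR2 codes for the liver's sensor of transferrin saturation. The gene lies at chr7:100620420-100641552 on the minus strand, and its transcript has 2886 bases. TFR2 was listed with 2 peaks in each of 5 lists and none in eIF3a replicate 2. The upstream peak fell in exons 1 and 2, between positions 33 and 301, and the downstream peak in exons 3 to 6, between 509 and 807. All had low folds, from 1.33 to 2.11, with the highest in eIF3b replicate 1. By p-value the better of the 2 peaks ranked 9361 and 7972 in the METTL16 lists. It ranked 5323 in eIF3a replicate 1 and 2197 and 6101 in the eIF3b lists. Positions 152 to 211 and 598 to 658 were shared by the 5 lists. The start codon at position 44 was under a peak only in METTL16 replicate 1. TFR2 peaks were therefore placed in the first part of the coding sequence, unlike those of TFRC.

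The regulators themselves were listed less often. IREB2 codes for iron regulatory protein 2, whose level falls when iron is plentiful, and lies at chr15:78438216-78501453 on the plus strand. It had no peak in either METTL16 list and at least 1 in all 4 eIF3 lists. eIF3a replicate 2, eIF3b replicate 1 and eIF3b replicate 2 shared positions 2699 to 2759 in the coding sequence (exons 20 and 21), with folds of 1.4, 1.64 and 1.55. eIF3a replicate 1 instead had a 3′ UTR peak at 5428 to 5577 (fold 2.37). eIF3b replicate 2 had a pair of further 3′ UTR peaks, at 5068 to 5128 (fold 2.52) and 5937 to 6027 (fold 2.67). No 3′ UTR position of IREB2 was shared by 2 lists. The peaks ranked between 12637 and 18443 by p-value, so they were among the weaker peaks of their lists.

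ACO1 codes for iron regulatory protein 1, which is a cytosolic aconitase when it holds an iron-sulfur cluster, and lies at chr9:32384643-32454769 on the plus strand. It had the fewest peaks of the 7 genes, 1 in METTL16 replicate 2 (positions 2790 to 2850, fold 2.38) and 1 in eIF3b replicate 1 (2790 to 2910, fold 3.02). Both began 5 bases after the last base of the stop codon, at position 2785. Neither was repeated in the other replicate of its protein. ACO1 was also the only member with the letters ACAGAGA, known from the U6 RNA site of METTL16 methylation. They stood at position 7125 in the 3′ UTR, under no peak, and 33.7% of 20020 coding transcripts hold them.

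HMOX1, the inducible haem oxygenase gene, lies at chr22:35381096-35394207 on the plus strand, and its transcript has 1554 bases. Its peaks lay in different places in the lists, and those of METTL16 and eIF3a came from 1 list each. METTL16 replicate 2 had a pair in the coding sequence, at 92 to 302 (fold 2.08) and 362 to 512 (fold 2.68). eIF3a replicate 1 had a peak over the stop codon at 931 to 1021 (fold 2.33). The eIF3b peaks lay in the 3′ UTR, at 1051 to 1291 in replicate 1 (fold 1.91) and 1171 to 1321 in replicate 2 (fold 2.35), and shared 121 bases. METTL16 replicate 1 and eIF3a replicate 2 had none. The eIF3b peaks were thus the only ones on HMOX1 present in both replicates of a protein. By p-value the HMOX1 peaks ranked 8469 and 10742 in METTL16 replicate 2 and 11923 in eIF3a replicate 1. They ranked 9304 and 17527 in eIF3b replicates 1 and 2. With peaks this far down their lists, a difference in place between proteins was not established.

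**Figure D3:**
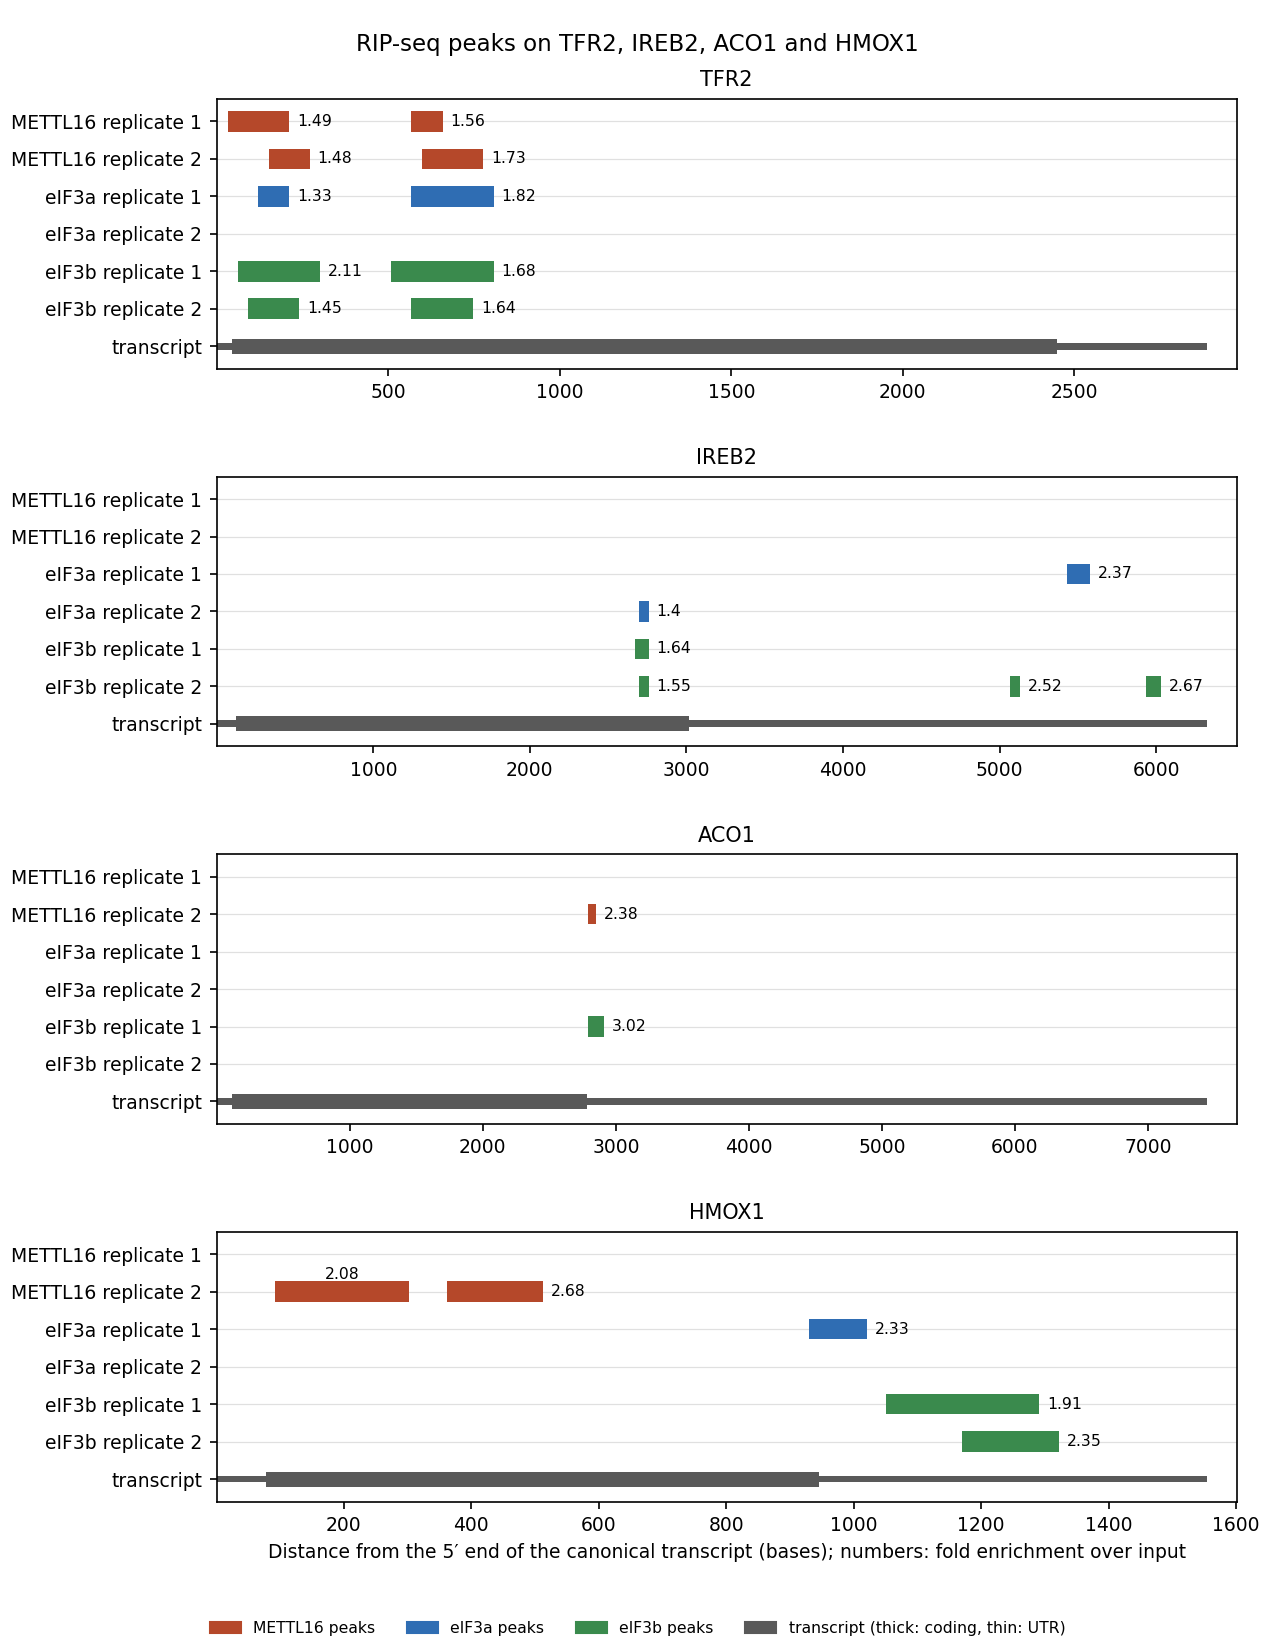
Peaks of the 6 lists along the TFR2, IREB2, ACO1 and HMOX1 transcripts, with distance from the 5′ end in bases and 1 row per list. Bars are peaks with their fold enrichment over input; TFR2 peaks recur at the same places in 5 lists, IREB2 has none in the METTL16 rows, and the ACO1 peaks start just after the coding sequence.

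The presence of all 7 genes was then counted per list. METTL16 replicates 1 and 2 held 4 and 5 of them, eIF3a 6 and 4, and eIF3b 7 and 6. Of all protein coding genes, 28.9% and 31.4% carried a peak in the METTL16 lists, 40.5% and 25.9% in the eIF3a lists and 40.0% and 37.5% in the eIF3b lists. A gene was called bound when both lists of a protein held a peak on it. By that rule METTL16 bound 3 of the 7 (FTH1, FTL and TFR2), against 22.9% of all coding genes and 42.7% of the 10725 coding genes with a peak in any list. eIF3a bound 4 (FTH1, FTL, TFRC and IREB2), against 22.8% and 42.5% in the same backgrounds. eIF3b bound 6, all but ACO1, against 32.2% and 60.1%. FTH1 and FTL were the 2 present in all 6 lists, which held for 13.6% of coding genes and 25.3% of those with any peak. The members were chosen by name with earlier results of these data known, so no test was made of these counts. Without METTL16 replicate 1 the rule asks only for a peak in METTL16 replicate 2, so the METTL16 count became the 5 of that list. With peaks of at least 4-fold enrichment alone the count was 0 for each protein. Only 30.3% (eIF3a replicate 2) to 40.9% (METTL16 replicate 2) of all peaks in a list reached that fold. The share of all coding genes bound at 4-fold is not given, so this 0 cannot be called particular to the members.

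**Figure D4:**
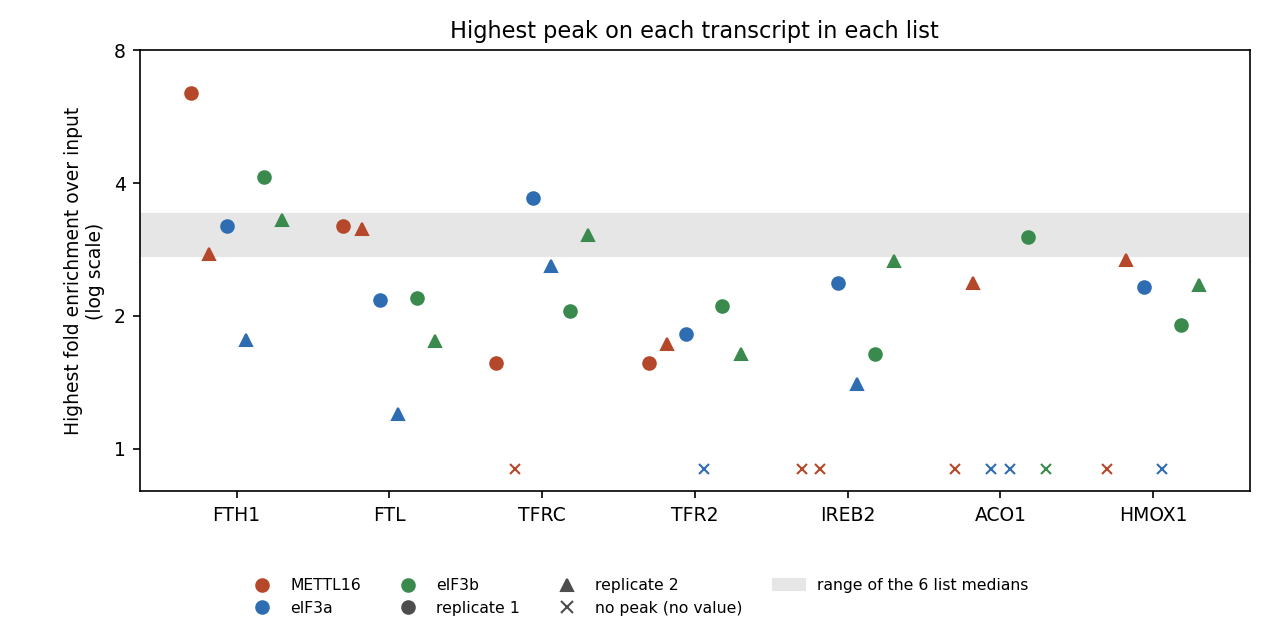
Highest fold enrichment over input of any peak on each gene (log scale), with 1 point per list, circles for replicate 1 and triangles for replicate 2, and crosses where a list has no peak and so no value. The grey band spans the 6 list medians (2.73 to 3.40); the points above it are FTH1 in METTL16 replicate 1 and eIF3b replicate 1 and TFRC in eIF3a replicate 1.

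How much of each transcript lay under peaks was compared between proteins. METTL16 peaks took up 17.9% of the FTH1 transcript in replicate 1 and 20.4% in replicate 2, against 12.9% and 2.91% for eIF3a and 12.9% in both eIF3b lists. The METTL16 mean of 19.1% ± 1.76 (SD, n = 2) lay 11.2 percentage points above eIF3a (7.90% ± 7.05) and 6.23 above eIF3b, with no overlap between the lists in either comparison. For TFRC the shares were 1.80% and 0 in METTL16, 11.4% in both eIF3a lists, and 5.41% and 10.8% in eIF3b. The eIF3a lists were the highest, eIF3b was intermediate and METTL16 the lowest, and no 2 proteins overlapped. The eIF3a and eIF3b lists were set apart by little, since the longest eIF3b peak had 539 bases and both eIF3a peaks 569. With the union of all annotated exons as the length, the TFRC differences shrank to -3.02 (METTL16 minus eIF3a), -2.07 (METTL16 minus eIF3b) and 0.944 (eIF3a minus eIF3b) percentage points, from -10.5, -7.18 and 3.27, and those of METTL16 over eIF3a and eIF3b for FTH1 to 6.74 and 3.74. With peaks of at least 4-fold enrichment alone no TFRC peak remained and these TFRC differences were 0. For comparison, the mean share of the 3′ UTR under peaks over all peak-carrying genes was 8.71% to 12.4%, and for TFRC it was 21.4% in both eIF3a lists, 7.90% and 20.3% in eIF3b and 3.39% and 0 in METTL16.

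The other genes showed smaller or less stable shares. For IREB2 they were 2.37% and 0.965% in eIF3a, 1.44% and 3.37% in eIF3b and 0 in both METTL16 lists, so METTL16 lay below both eIF3 subunits. For TFR2 they were 9.36% and 10.4% in METTL16, 11.4% and 0 in eIF3a, and 18.6% and 11.4% in eIF3b, so eIF3b lay above METTL16 but overlapped eIF3a. For FTL they were 50.2% and 36.7% in METTL16, 36.9% and 16.8% in eIF3a and 36.9% and 23.5% in eIF3b, and the proteins overlapped in every comparison. For HMOX1 they were 0 and 23.3% in METTL16, 5.86% and 0 in eIF3a and 15.5% and 9.72% in eIF3b, so eIF3b lay above eIF3a. For ACO1 they were 0.820% in METTL16 replicate 2, 1.63% in eIF3b replicate 1 and 0 elsewhere, and no proteins were apart.

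Of the 21 comparisons of a gene between 2 proteins, 9 had lists that did not overlap. With 2 lists against 2 an exact permutation test, two-sided, cannot give a p below 0.333, which is the value these 9 gave, so none can pass a threshold. Higher in METTL16 than in eIF3a was FTH1 (1 of 7), against 13.7% of all genes with a peak in these lists. Higher in eIF3a than in METTL16 were TFRC and IREB2 (2 of 7, against 23.2%). Higher in METTL16 than in eIF3b was FTH1 (1 of 7, against 5.48%), and higher in eIF3b than in METTL16 were TFRC, TFR2 and IREB2 (3 of 7, against 38.4%). Higher in eIF3a than in eIF3b was TFRC (1 of 7, against 6.49%), and higher in eIF3b than in eIF3a was HMOX1 (1 of 7, against 22.5%). The shares among the members were close to these backgrounds, apart from counts of 1 where the background was lowest.

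The same hairpin search allowed the ferritin and TFRC peaks to be set beside other transcripts with the element. Of the 19 genes with a match in the 5′ UTR, the match lay under a peak in at least 1 list in 4. These were FTH1 (5 lists), SLC40A1 (5 lists), FTL (4 lists) and ENC1 (3 lists). In ADAR, DUSP9 and ZER1 it lay under none although each gene had a peak in all 6 lists. Others of the 19 had no peak in any list. Among genes with a 5′ UTR match and a peak, the match lay under a peak in 2 of 9 and 3 of 10 in the METTL16 lists. The counts were 3 of 11 and 1 of 9 in the eIF3a lists and 4 of 13 and 4 of 11 in the eIF3b lists. SLC40A1 codes for ferroportin, the iron exporter, whose translation is held back by the same hairpin. Its element is shown for comparison with the ferritin ones.
SLC40A1 (chr2:189580660-189580689, minus strand, 5′ UTR, exon 1): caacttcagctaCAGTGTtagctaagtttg
The SLC40A1 peaks resembled those of FTH1 in place. In METTL16 replicate 2, both eIF3a lists and both eIF3b lists a peak ended at position 186, with folds of 2.86, 4.44, 4.9, 5.1 and 3.01, and METTL16 replicate 1 had no peak on the gene. The peak began at position 6 in METTL16 replicate 2 and eIF3b replicate 2 and upstream of the canonical 5′ end in the other 3 lists, where it was 211 bases wide. Only the eIF3a lists had a further peak in its 3′ UTR, ending at position 3001. Among genes with a 3′ UTR match and a peak, the match lay under a peak in 7 of 55 and 3 of 47 in the METTL16 lists, 10 of 62 and 10 of 51 in the eIF3a lists and 7 of 60 and 12 of 61 in the eIF3b lists. Being listed with a peak elsewhere on the transcript was thus the usual case for such genes, and TFRC was among the exceptions in 5 lists.

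The wider iron pathway was counted with 41 further genes of transport, hepcidin control, haem synthesis and iron-sulfur cluster assembly. Of these, 10 (24.4%) carried a peak in all 6 lists, and 11 (26.8%) in none, against 13.6% and 46.4% of all coding genes. The 10 were NEO1 and SMAD4 of the hepcidin pathway, the ferrireductase STEAP3, the ferritin cargo receptor NCOA4, the iron chaperone PCBP2, the mitochondrial iron importer SLC25A37, the haem exporter FLVCR1, and EPAS1, CDC42BPA and PFN2. Those with none were HAMP, HJV, BMP6, CYBRD1, SLC39A8, FTMT, CP, HEPH, HAO1, NFE2L2 and BACH1. Both METTL16 lists held 18 of the 41, both eIF3a lists 14 and both eIF3b lists 19, against 22.9%, 22.8% and 32.2% of all coding genes. Of the 10725 coding genes with a peak in any list, 42.7%, 42.5% and 60.1% met these rules. In that background 25.3% carried a peak in all 6 lists, while the 41 include the 11 genes with none. The transferrin gene TF was in both METTL16 lists and in no other, the iron transporter SLC11A2 in both eIF3a lists and in no other, and SLC25A28 in both eIF3b lists and in no other. Each was 1 of the 41, and no share over all coding genes is given for this pattern. Folds were 1.32 to 2.19 on TF, below the list medians, 9.79 to 12.4 on SLC11A2 and 13.2 to 15.1 on SLC25A28. On SLC11A2 only the eIF3a replicate 2 peak (fold 9.79) had bases on the canonical transcript, between positions 1 and 298. The replicate 1 peak (fold 12.4) had none there, so the eIF3a lists did not share a peak position on that transcript. Folds on NCOA4, which delivers ferritin to the lysosome, were low in every list, from 1.26 to 1.96.

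**Figure D5:**
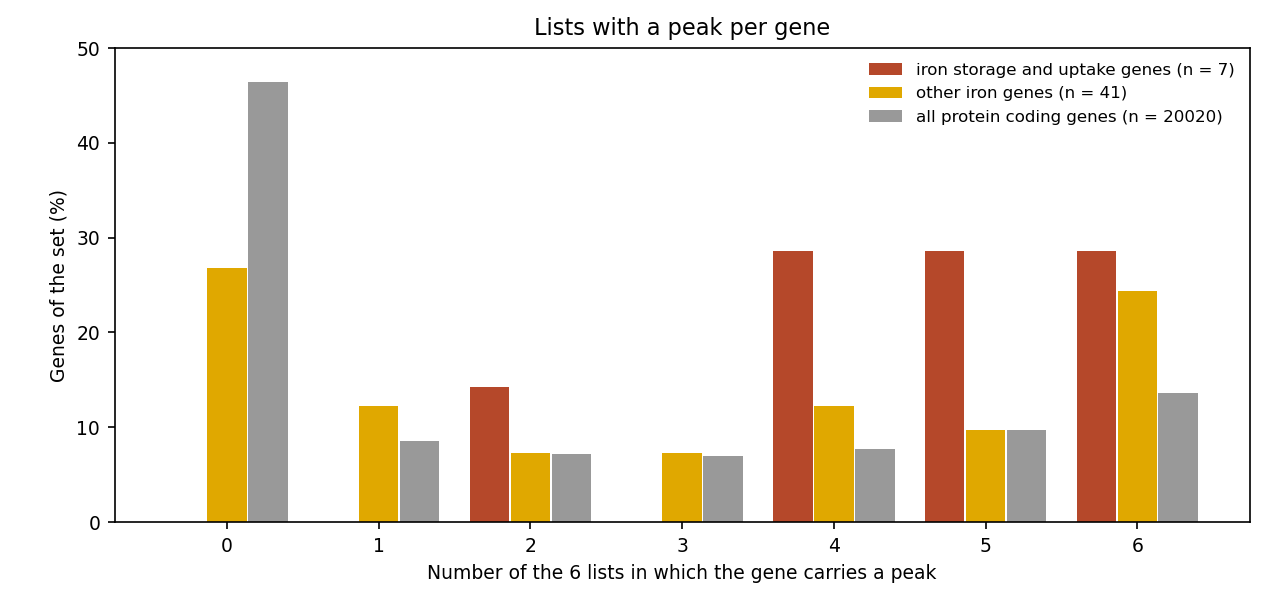
Share of genes (%) by the number of lists, out of 6, in which they carry a peak, for the 7 iron storage and uptake genes, 41 other iron genes and all 20020 protein coding genes. Of the 7, 0% are in 0 lists and 0% in 1 list, against 46.4% and 8.52% of all coding genes. The 7 were taken by name from the lists, so 0% in 0 lists can follow from how they were picked. They were also chosen with earlier results of these data known, so these shares were not tested.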

How the data were processed

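HepG2 RIP-seq peak lists were analysed for 3 proteins, 2 per protein; the 6 inputs had no list and entered only through the peak calling. Per the submitters' processing notes and the study's methods, reads were aligned by the authors with STAR (GRCh38), and RIP was set against input in exomePeak, left at its defaults; versions, gene annotation and the pairing of inputs were not given in the sources used here. The lists deposited by the authors give, for each peak, exonic blocks, a p-value, its log10 and that of the adjusted p-value (treated as scores), and a fold enrichment (ratio of RIP to input). They serve here to describe, rank and filter peaks. No list holds counts, so depth is unknown and no counting interval is given. No per-sample column was left unused.

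Gene names were matched to the 20020 protein coding genes of GENCODE release 44: 10309 of 10830 by current symbol, 425 by an older symbol from the RefSeq gene table, and 96 to none. Blocks were converted to 1-based positions and laid on the canonical transcript. The element search required 5 paired stem positions (Watson-Crick or G-U), and an element counted as under a peak when at least 1 base was. The search and the position mapping (Python 3.11.15, SciPy 1.17.1) were tested on simulated data. Proteins were compared by the share of a transcript under peaks, with an exact permutation test, two-sided. Alternatives were a minimum fold of 4, the top 5000 peaks of a list by p-value, either replicate, leaving out each list, all annotated exons, whole elements, 4 of 5 stem positions, and a replicate block.

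All 7 members are described. Of the other iron genes, those in all lists or in none and those with an element were named; some items are not reported here. ENC1, ADAR, DUSP9 and ZER1, and the genes listed for 1 protein only, were named after their values were seen. The members and gene lists were chosen with earlier results of these data known.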

Additional observations from a re-analysis of the deposited data

How the results depend on the processing

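Across 213 alternative values for 27 results, the presence of peaks depended mostly on the fold threshold. With folds of at least 4, METTL16, eIF3a and eIF3b bound 0 of the 7 genes, against 3, 4 and 6, and the elements of FTH1, FTL and TFRC were under a peak 2, 0 and 0 times, against 5 and 4 of 6 and 14 of 24. With the 5000 peaks of smallest p-value, eIF3b bound 2 and the TFRC elements counted 9. With a peak in either replicate METTL16 bound 6. The share of all coding genes under these alternative rules is not given, so the changed counts describe the members only. Leaving out 1 list of a protein reduced the rule to a peak in its other list, so the bound counts could only stay or rise. They were 4 to 5 genes for METTL16 (5 without replicate 1), 4 to 6 for eIF3a and 6 to 7 for eIF3b. The element counts then ran over 1 list fewer and could only stay or fall. They were 4 to 5 for the FTH1 element, 3 to 4 for FTL and 11 to 14 for TFRC. The other alternatives moved these counts by at most 1.5 times (METTL16 bound 2 with the 5000 peaks, and eIF3a 6 with either replicate).

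Of 168 alternatives for the share of a single transcript under peaks, 128 kept the sign of the difference, whatever its size, 31 brought it to 0 and 9 reversed it, each of the 9 by leaving out 1 list. METTL16 minus eIF3a ranged from -1.56 percentage points (without eIF3a replicate 2) to 9.88 for TFR2, and from -2.93 (without METTL16 replicate 2) to 20.4 for HMOX1. METTL16 minus eIF3b ranged from -1.22 to 0.410 for ACO1 (0.00672 without METTL16 replicate 1, 0.410 without eIF3b replicate 1), and from -12.6 to 10.7 for HMOX1 (10.7 and 1.93 without the same lists). eIF3a minus eIF3b ranged from -13.4 to 6.66 for FTL (6.66 without eIF3a replicate 2, 3.27 without eIF3b replicate 1), and from -1.70 to 0.229 for IREB2 (0.229 without eIF3b replicate 2). In each of these comparisons the lists of the proteins overlapped. With a replicate block the differences were unchanged (11.2 percentage points for FTH1, METTL16 minus eIF3a), and the exact sign-flip test cannot give a p below 0.5. Labels give no sign that equal numbers pair the samples. With 2 lists a protein and no read counts, small differences in peak extent could not be resolved.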

Other observations

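In 3 other iron genes with an element, the peaks lay away from it. ALAS2, the erythroid enzyme of haem synthesis, had an element at positions 15 to 31 that no list covered. In both METTL16 lists (folds 526 and 2170) and eIF3b replicate 1 (fold 975) a single peak ran through its coding sequence from 182 to 1761, while eIF3a replicate 1 had 3 short peaks with folds of 1.58 to 4.13, and eIF3a replicate 2 and eIF3b replicate 2 had none. TF had peaks only in METTL16, at 2294 to 2353 in replicate 1 and at 1492 to 1759 and 2145 to 2323 in replicate 2, the last of which took in the end of the stop codon and overlapped the first. The TF match lay far from them, at positions 16204 to 16220 of a canonical transcript of 20166 bases. It was 13851 bases from the nearest peak, and whether it acts as an iron-responsive element is not known from these data. CDC14A had coding peaks in METTL16 replicate 1 and both eIF3a lists, none of them on its 3′ UTR element.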
